A study of Rattus norvegicus with 20 samples.

Results

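The angiopoietins and their Tie receptors were followed in rat lung as 5 genes, Angpt1, Angpt2, Angptl4, Tek and Tie1, which were picked by gene symbol from a table of 19060 genes. All 5 were in the table, and all 5 were among the 14794 genes with enough reads to be tested. The lungs came from 4 groups of 5 rats. CLP+VNS rats had caecal ligation and puncture (CLP), an abdominal sepsis model used here to give acute respiratory distress syndrome, together with stimulation of the cervical vagus on the right side (VNS). CLP rats had the operation alone. Sham+VNS rats had a sham operation and the same stimulation, and Sham rats had a midline laparotomy in which the caecum was handled but neither tied nor pierced. Every rat thus had abdominal surgery. No strain, sex, age, time of collection or stimulation setting is given in the sources used here.

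Angpt1, made mainly by pericytes and other perivascular cells and carried by platelets, binds the endothelial receptor Tie2, encoded by Tek, and keeps vessels quiescent and tight. Angpt2, stored by endothelial cells in Weibel-Palade bodies, binds the same receptor, often blocking Angpt1, and its gene is a known target of the transcription factor FOXO1. Tie1 binds no angiopoietin tightly by itself but forms complexes with Tie2 and tunes its signal. Angptl4 shares the family's fold but does not act through the Tie receptors: it inhibits lipoprotein lipase, and its transcription is known to respond to PPARs, glucocorticoids and hypoxia. In sepsis and acute lung injury the balance of Angpt2 to Angpt1 is widely followed as a sign of vascular leak. The values below are of mRNA in whole lung, and neither protein nor leak was measured.

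Each library held between 13729654 and 14453188 deposited reads assigned to genes. The members were covered by 28 to 158 reads per library for Angpt2, 67 to 893 for Angptl4, 646 to 2188 for Angpt1, 2210 to 3726 for Tie1 and 7246 to 14631 for Tek, so Angpt2 carried the largest counting error of the 5. Lung epithelium markers summed to 35816 to 40538 CPM (TMM-scaled counts-per-million values) in CLP and 23987 to 41020 CPM in Sham lungs, and Pecam1 and Cdh5, which define the endothelium, were abundant in every group. In whole lung, fewer cells of a type and less RNA per cell cannot be told apart. Nothing in the labels says which rats were handled together, and p-values set differences between groups against the variation between single libraries.

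Levels per gene length are given as transcripts-per-million (TPM) values, which can be set side by side between genes. In all 5 CLP+VNS and all 5 CLP libraries the order of TPM levels was Tek, Tie1, Angptl4, Angpt1 and Angpt2. In all 5 Sham+VNS libraries and in 4 of 5 Sham libraries Angpt1 stood above Angptl4 instead, and in the other Sham library Angpt2 too stood above Angptl4. The receptors were therefore the most abundant members in every library, and Angptl4 changed its place in the order with the operation. For Angpt1 and Angpt2 the group means of TPM ran, from low to high, CLP, CLP+VNS, Sham+VNS and Sham, and the libraries of neighbouring groups overlapped except between CLP+VNS and Sham+VNS. For Tie1 the order was CLP, CLP+VNS, Sham and Sham+VNS, for Tek it was Sham, CLP, Sham+VNS and CLP+VNS, and for Angptl4 it was Sham+VNS, Sham, CLP+VNS and CLP. Every pair of neighbours in these 3 orders overlapped.

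**Figure D1:**
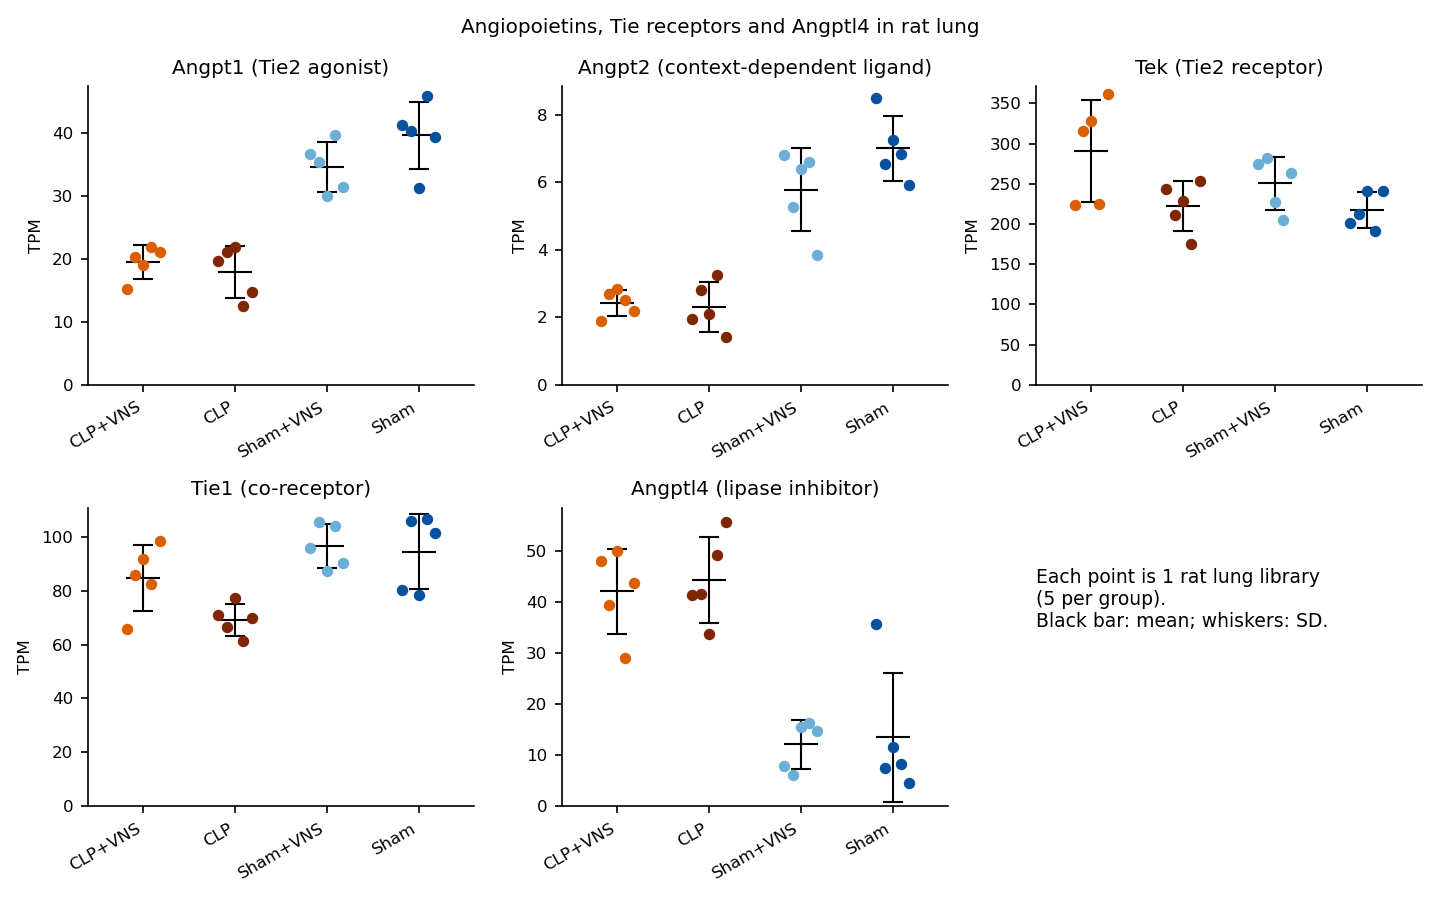
TPM (transcripts-per-million, vertical axes starting at 0) of the 5 genes in CLP+VNS, CLP, Sham+VNS and Sham rat lungs; each point is 1 library, the black bar the mean and the whiskers the SD (n = 5). Angpt1 lies between 12.5 and 21.9 TPM in the CLP+VNS and CLP libraries and at 30.04 TPM or above in the Sham+VNS and Sham libraries, Angpt2 is low and Angptl4 is high in the operated groups, and 1 Sham library has 35.8 TPM of Angptl4.

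The comparison of CLP with Sham asked how the system stood after caecal ligation and puncture without stimulation. Both angiopoietins fell, Angptl4 rose, Tie1 fell slightly and Tek did not pass the test. Over all genes tested 20.5% fell and 19.8% rose, beside 3 and 1 of the 5 members. Calls are at an adjusted p below 0.05 by edgeR's quasi-likelihood test with Benjamini-Hochberg adjustment over all 14794 genes, in a single fit of the 20 libraries. With total-count scaling in place of TMM, 2341 genes rose and 3763 fell, against 2926 and 3029 with TMM, and limma on log2(TPM + 0.1) gave 1971 and 4211. The direction of the 4 called members was the same under all of these.

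Angpt1, the agonist of Tie2, had 19.6, 21.1, 21.9, 12.5 and 14.8 TPM in the 5 CLP lungs. In the 5 Sham lungs it had 41.3, 40.4, 31.3, 45.8 and 39.4 TPM. Every CLP lung was below every Sham lung, which was so for 26.1% of all genes tested when either direction is counted. Angpt1 averaged 63.4 ± 14.3 CPM in CLP and 133 ± 19.7 CPM in Sham (SD, n = 5 each), a log2 fold change of -1.07 ± 0.13 (SE, edgeR adjusted p = 4.57e-06).

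Angpt2, the context-dependent ligand, had 1.95, 2.82, 2.10, 3.26 and 1.41 TPM in CLP lungs. In Sham lungs it had 8.50, 6.54, 7.26, 6.85 and 5.91 TPM. The groups again did not overlap, and the highest CLP lung was still well below the lowest Sham lung. Angpt2 averaged 3.31 ± 1.08 CPM in CLP and 9.43 ± 1.28 CPM in Sham (SD, n = 5 each), a log2 fold change of -1.51 ± 0.20 (SE, edgeR adjusted p = 8.43e-06). This was the largest fall among the members, in the gene with the fewest reads.

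Tek, the Tie2 receptor, had 244, 211, 229, 175 and 254 TPM in CLP lungs. In Sham lungs it had 201, 213, 241, 192 and 241 TPM. The groups overlapped over most of their range, and the log2 fold change was 0.13 (95% interval -0.15 to 0.41, edgeR adjusted p = 0.474). Tie1, the co-receptor, had 70.9, 66.4, 77.4, 61.2 and 69.8 TPM in CLP lungs. In Sham lungs it had 80.3, 106, 78.4, 106.5 and 101.4 TPM. In TPM every CLP lung was below every Sham lung by a narrow margin, and in CPM the ranges overlapped. Tie1 averaged 178 ± 13.3 CPM in CLP and 229 ± 33.6 CPM in Sham (SD, n = 5 each), a log2 fold change of -0.36 ± 0.10 (SE, edgeR adjusted p = 0.00574).

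Angptl4, the lipase inhibitor, had 41.4, 41.7, 33.8, 49.3 and 55.8 TPM in CLP lungs. In Sham lungs it had 35.8, 7.42, 11.5, 8.28 and 4.46 TPM. The Sham lung of replicate 1 stood apart from the other Sham lungs and reached the lower end of the CLP lungs: the TPM ranges overlapped, while in CPM the lowest CLP lung, at 37.9, was just above the highest Sham lung, at 37.0. Angptl4 averaged 51.0 ± 10.8 CPM in CLP and 14.3 ± 13.1 CPM in Sham (SD, n = 5 each), a log2 fold change of 1.84 ± 0.41 (SE, edgeR adjusted p = 0.00164). Without Sham replicate 1 the log2 fold change was 2.57 (edgeR adjusted p = 7.06e-06).

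The window before the Angptl4 start is shown because Angptl4 was the member that rose and its gene is a known target of several kinds of factor. RefSeq promoter windows (GRCr8, 250 bases before to 50 after the start) matched 2 of the 5 members, Angptl4 and Tie1. They were searched on both strands for GTAAACA (forkhead core), ACGTG (hypoxia response element core), the PPAR element (AGGTCA repeated after 1 free base), AGAACA (glucocorticoid receptor core) and CCGGAAGT (ETS). The 250 bases before the Angptl4 start lie at chr7:15258682-15258931 on the minus strand of GRCr8, and the capitals mark the ACGTG core read on the opposite strand, at positions -230 to -226 from the start.
Angptl4: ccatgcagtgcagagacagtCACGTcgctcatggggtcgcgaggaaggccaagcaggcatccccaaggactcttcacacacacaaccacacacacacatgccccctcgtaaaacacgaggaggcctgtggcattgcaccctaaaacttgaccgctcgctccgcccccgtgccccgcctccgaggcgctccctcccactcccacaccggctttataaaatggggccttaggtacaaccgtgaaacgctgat
This was the single match of these 5 motifs in the Angptl4 window, and the Tie1 window held none of them. ACGTG was found in 19.7% of 27457 RefSeq windows of the same length, AGAACA in 20.1%, CCGGAAGT in 4.01%, GTAAACA in 3.76% and the PPAR element in 0.0583%. A match describes the letters and not a bound site. Bases outside these windows were not searched, so a missing match says nothing of sites elsewhere.

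Under stimulation the operation was compared in CLP+VNS and Sham+VNS rats. Both angiopoietins fell here too and Angptl4 rose, while neither receptor passed the test. Over all genes tested 13.4% fell and 13.9% rose in this comparison, and for 18.9% the groups did not overlap. Angpt1 had 15.2, 20.2, 19.0, 21.9 and 21.1 TPM in CLP+VNS lungs. In Sham+VNS lungs it had 36.7, 35.3, 30.04, 39.7 and 31.4 TPM. The groups did not overlap, and the log2 fold change was -0.74 ± 0.13 (SE, edgeR adjusted p = 0.000303).

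Angpt2 had 1.88, 2.70, 2.85, 2.50 and 2.20 TPM in CLP+VNS lungs. In Sham+VNS lungs it had 6.81, 5.27, 6.40, 6.59 and 3.86 TPM. All CLP+VNS lungs were below all Sham+VNS lungs, the nearest being Sham+VNS replicate 5, and the log2 fold change was -1.19 ± 0.20 (SE, edgeR adjusted p = 0.000166). Angptl4 had 48.2, 39.4, 50.1, 29.1 and 43.7 TPM in CLP+VNS lungs. In Sham+VNS lungs it had 7.98, 6.05, 15.5, 16.3 and 14.8 TPM. The groups did not overlap, and the log2 fold change was 1.86 ± 0.41 (SE, edgeR adjusted p = 0.00237).

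Tek had 223, 315, 328, 225 and 362 TPM in CLP+VNS lungs. In Sham+VNS lungs it had 275, 282, 227, 205 and 264 TPM. The ranges overlapped, with 3 CLP+VNS lungs above all Sham+VNS lungs, and the log2 fold change was 0.27 (95% interval -0.01 to 0.55, edgeR adjusted p = 0.144). Tie1 had 65.7, 85.7, 91.9, 82.6 and 98.3 TPM in CLP+VNS lungs. In Sham+VNS lungs it had 95.7, 105.3, 87.5, 104.2 and 90.2 TPM. The groups overlapped, with a log2 fold change of -0.13 (95% interval -0.33 to 0.08, edgeR adjusted p = 0.359).

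**Figure D2:**
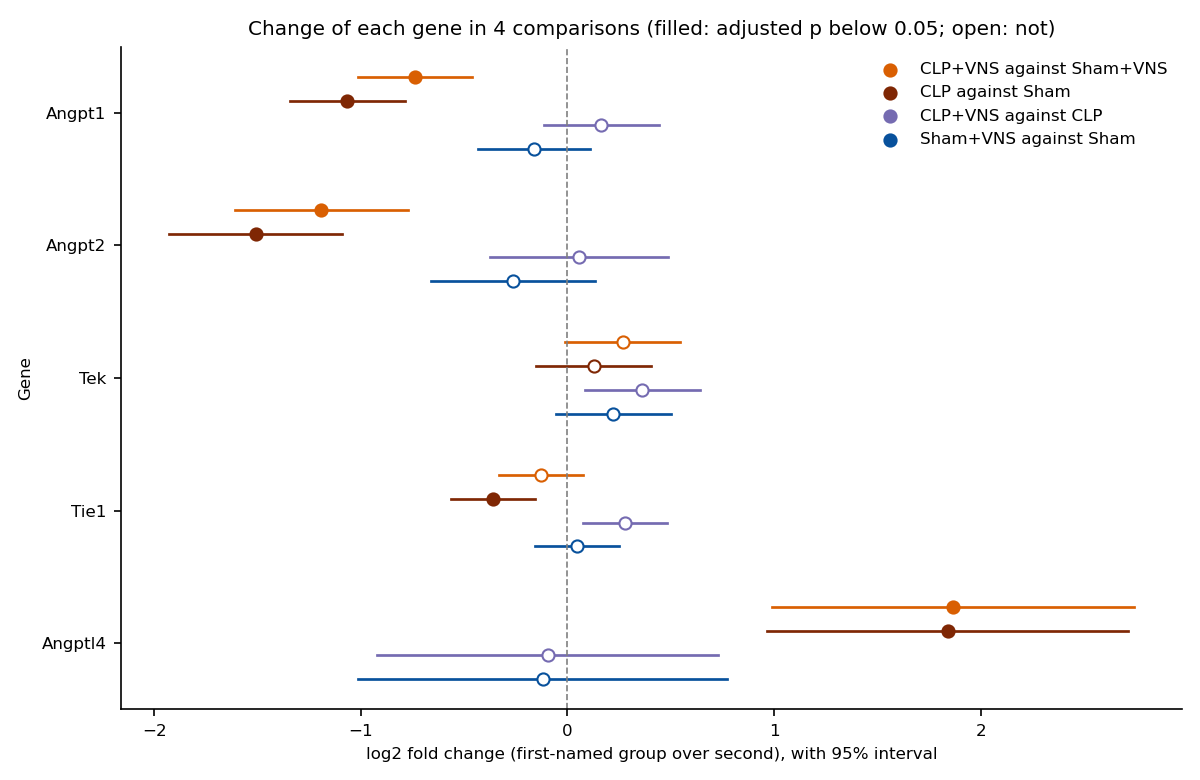
log2 fold change (horizontal axis, the group named first over the second) of each gene in CLP+VNS against Sham+VNS, CLP against Sham, CLP+VNS against CLP and Sham+VNS against Sham, with 95% intervals from edgeR; filled points passed at an adjusted p below 0.05 and open points did not. Angpt1 and Angpt2 lie below 0 and Angptl4 above it in both comparisons of the operation, and no point of the 2 comparisons of stimulation is filled.

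Stimulation was compared in operated rats (CLP+VNS with CLP) and in sham rats (Sham+VNS with Sham), and no member passed in either. In CLP+VNS against CLP 0.027% of all genes were called, which is 4 genes, and 1927 genes had an unadjusted p below 0.05. DESeq2 called 144, and leaving out CLP+VNS replicate 1 gave 277 with edgeR. Tek averaged 847 ± 166 CPM in CLP+VNS and 659 ± 90.1 CPM in CLP (SD, n = 5 each), with a log2 fold change of 0.36 (95% interval 0.08 to 0.64, edgeR adjusted p = 0.254). Tie1 averaged 216 ± 27.3 CPM in CLP+VNS and 178 ± 13.3 CPM in CLP (SD, n = 5 each), with a log2 fold change of 0.28 (95% interval 0.07 to 0.48, edgeR adjusted p = 0.233). For both receptors the interval of the single gene leaves out 0, and the value did not pass once adjusted over all genes. The 21 endothelial markers, taken up again with the marker lists, also summed higher, to 7319 to 9882 CPM in CLP+VNS and 6509 to 7492 CPM in CLP. Of these markers 18 had an unadjusted edgeR p below 0.05, with a median log2 fold change of 0.31, and 0 were called. Relative to the mean log2 CPM of the markers, Tek differed by 0.04 and Tie1 by -0.04 (adjusted exact permutation p = 0.870 and 0.646). The part of the markers in the receptors' values was not tested. The ligands differed less: the log2 fold change was 0.16 for Angpt1 (95% interval -0.11 to 0.44), 0.06 for Angpt2 (-0.38 to 0.49) and -0.10 for Angptl4 (-0.92 to 0.73), with edgeR adjusted p-values of 0.622, 0.937 and 0.943.

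In Sham+VNS against Sham 0% of genes were called by edgeR, 1185 had an unadjusted p below 0.05, and DESeq2 called 6. The log2 fold changes were -0.16 for Angpt1 (95% interval -0.43 to 0.11), -0.26 for Angpt2 (-0.66 to 0.13), 0.22 for Tek (-0.06 to 0.50), 0.05 for Tie1 (-0.16 to 0.25) and -0.12 for Angptl4 (-1.01 to 0.77), with edgeR adjusted p-values of 0.686 to 0.961. The value for Angptl4 rests on Sham replicate 1: without that lung it was 0.61. Whether stimulation altered the response to the operation was tested as the interaction, in which 0% of genes were called by edgeR, 1217 had an unadjusted p below 0.05, and DESeq2 called 6. The interaction on the log2 scale was 0.33 for Angpt1 (95% interval -0.06 to 0.71), 0.32 for Angpt2 (-0.27 to 0.91), 0.23 for Tie1 (-0.06 to 0.52), 0.14 for Tek (-0.25 to 0.53) and 0.02 for Angptl4 (-1.19 to 1.24), with edgeR adjusted p-values of 0.668 to 0.998. The values of the 5 members in CLP+VNS against Sham+VNS are therefore not shown to differ from those in CLP against Sham. The sign for Angptl4 was not stable: without Sham replicate 1 the interaction was -0.71, and over all single libraries left out it ran to 0.24.

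The balance of the ligands was taken in each library as Angpt2 TPM in percent of Angpt1 TPM. Its group mean was lower in CLP than in Sham, and the difference did not pass the test. The balance was 9.95%, 13.4%, 9.58%, 26.0% and 9.55% in CLP lungs. In Sham lungs it was 20.6%, 16.2%, 23.2%, 14.9% and 15.0%. In 4 CLP lungs the balance was below all Sham lungs, and CLP replicate 5, which had the highest Angpt2 and the lowest Angpt1 of its group, was above all of them. The log2 ratio differed by -0.49 in CLP minus Sham, with an exact two-sided permutation p of 0.175 and 0.403 after Benjamini-Hochberg adjustment over the 30 tests of the 6 per-library ratios (n = 5 each). Without CLP replicate 5 the difference was -0.75 (adjusted exact permutation p = 0.0397). That lung alone kept the groups from separating, so leaving it out gives the smallest p possible. This value is therefore no separate evidence of a lower balance.

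Under stimulation Angpt2 was 12.4%, 13.3%, 15.0%, 11.4% and 10.4% of Angpt1 in CLP+VNS lungs. In Sham+VNS lungs it was 18.6%, 14.9%, 21.3%, 16.6% and 12.3%. The ranges overlapped, the CLP+VNS lungs lying towards the lower end, with a log2 difference of -0.41 (exact two-sided permutation p = 0.0556, adjusted p = 0.185, n = 5 each). Between CLP+VNS and CLP the log2 ratio differed by -0.02 (adjusted exact permutation p = 0.984), and between Sham+VNS and Sham by -0.10 (0.823).

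The ratio of the receptors, Tie1 in percent of Tek, was 29.1%, 31.5%, 33.8%, 35.0% and 27.5% in CLP lungs. In Sham lungs it was 39.9%, 49.8%, 32.5%, 55.6% and 42.0%. Sham replicate 3 lay among the CLP lungs and the other Sham lungs lay above them all. The log2 difference was -0.47 in CLP minus Sham (exact two-sided permutation p = 0.0238, adjusted p = 0.102, n = 5 each). In CLP+VNS lungs Tie1 was 29.5%, 27.2%, 28.0%, 36.7% and 27.1% of Tek, against 34.8%, 37.3%, 38.5%, 50.9% and 34.2% in Sham+VNS lungs. Only CLP+VNS replicate 8 reached into the Sham+VNS range, and the log2 difference was -0.39 (exact two-sided permutation p = 0.0238, adjusted p = 0.102, n = 5 each). Neither difference passed after adjustment, and without CLP+VNS replicate 8 the second was -0.47 (adjusted exact permutation p = 0.0476). Leaving out the only overlapping library separates the groups and gives the smallest p possible, so this pass is no separate evidence.

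**Figure D3:**
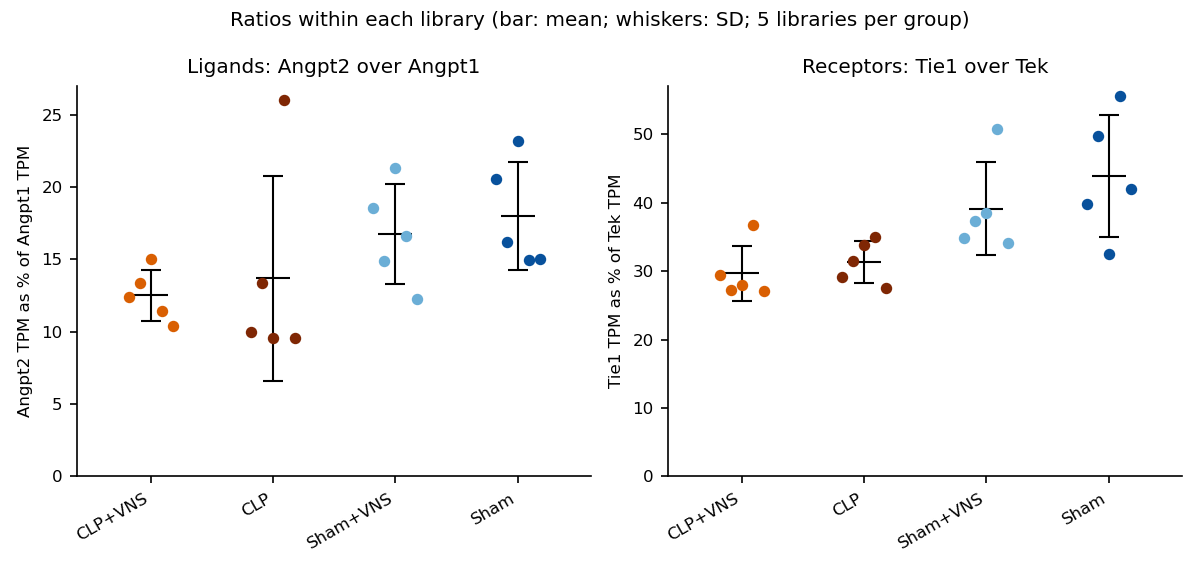
Angpt2 TPM in percent of Angpt1 TPM (left) and Tie1 TPM in percent of Tek TPM (right) in CLP+VNS, CLP, Sham+VNS and Sham lungs; each point is 1 library, the bar the mean and the whiskers the SD (n = 5), and the axes start at 0. Angpt2 was 13.7 ± 7.07% of Angpt1 in CLP, with 1 library at 26.0%, and 18.0 ± 3.72% in Sham, and Tie1 was 31.4 ± 3.11% of Tek in CLP and 44.0 ± 8.95% in Sham.

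The members other than Angptl4 were also set against markers of a cell type known to make them. The value was the log2 CPM of the gene minus the mean log2 CPM of the tested markers. Which cells made each gene in these lungs was not measured, so the values are not levels per cell. Angpt1 relative to the mean of 15 pericyte and smooth muscle markers differed by -0.61 on the log2 scale in CLP minus Sham and by -0.50 in CLP+VNS minus Sham+VNS. Angpt2 relative to the mean of 21 endothelial markers differed by -1.35 and -1.22 in the same comparisons. In all 4 of these the libraries did not overlap, which gives the smallest p that 5 against 5 allow, 0.00794 (exact two-sided permutation), and 0.0595 after adjustment over the 30 tests, so that none passed. Tek relative to the endothelial markers differed by 0.30 in CLP minus Sham (adjusted exact permutation p = 0.0952) and by 0.18 in CLP+VNS minus Sham+VNS (0.397), and Tie1 by -0.18 (0.346) and -0.21 (0.119). With the median of the markers in place of the mean, the 4 differences of Angpt1 and Angpt2 and that of Tie1 in CLP+VNS minus Sham+VNS, which was then -0.46, passed (adjusted exact permutation p = 0.0476), while Tek in CLP+VNS minus Sham+VNS turned to -0.07. With 2 marker genes alone Tie1 turned to 0.06 in CLP minus Sham and 0.07 in CLP+VNS minus Sham+VNS. Without CLP replicate 5 Angpt1, Angpt2 and Tek passed in CLP minus Sham (0.0397, Tek at 0.34), and without CLP+VNS replicate 8 Angpt1 and Angpt2 passed in CLP+VNS minus Sham+VNS (0.0476). For Angpt1 and Angpt2 the unadjusted p was already the smallest possible. Their passing, with the median or without these libraries, therefore came from the adjustment over the 30 tests and not from a smaller p of their own. For Tek, CLP replicate 5 was the only CLP lung that overlapped Sham, so leaving it out separates the groups. That pass of Tek is no separate evidence.

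**Figure D4:**
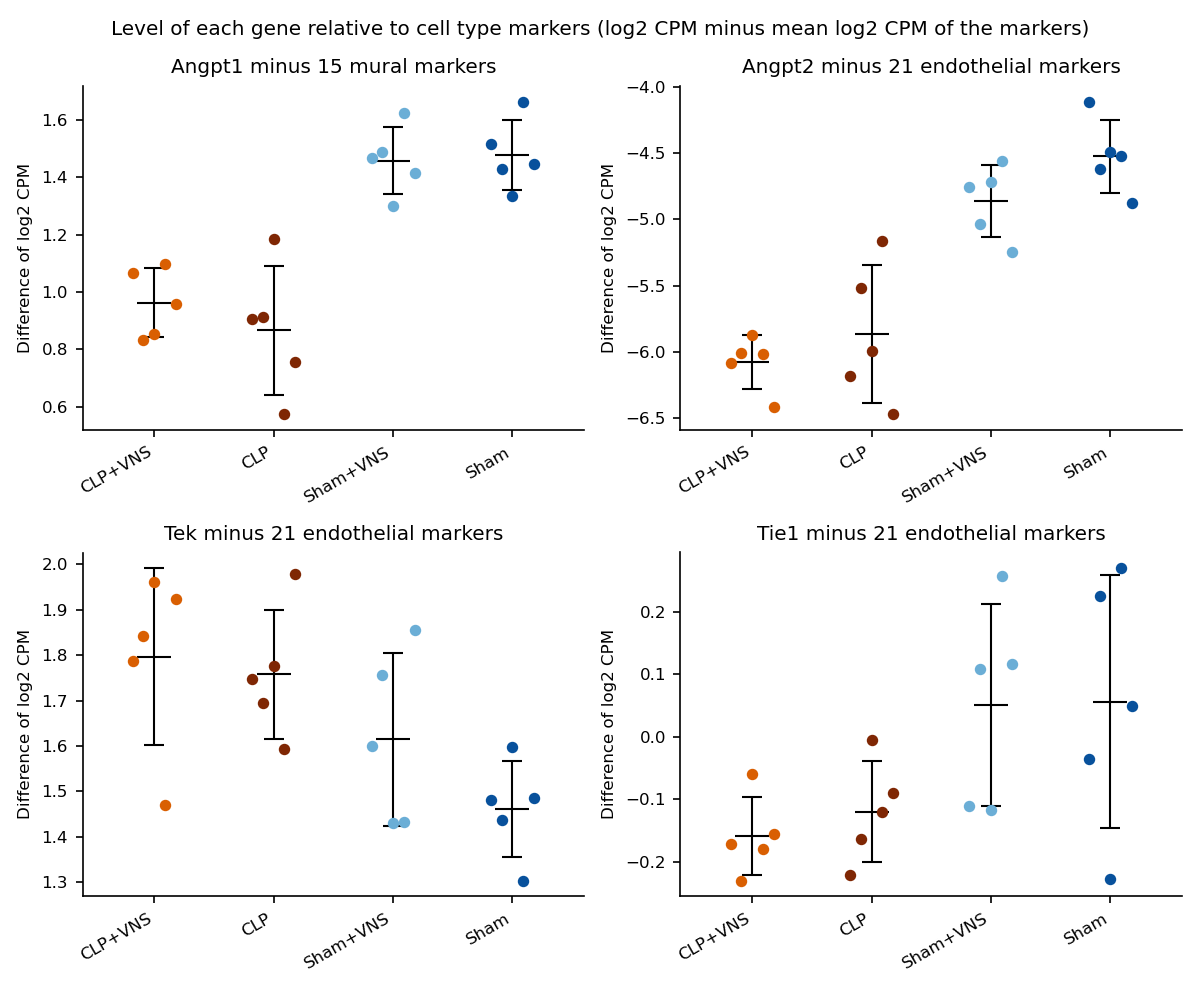
Difference of log2 CPM between a gene and the mean of its marker list in CLP+VNS, CLP, Sham+VNS and Sham lungs; each point is 1 library, the bar the mean and the whiskers the SD (n = 5), and the axes do not start at 0. For Angpt1 and Angpt2 the CLP+VNS libraries lie below all Sham+VNS libraries and the CLP libraries below all Sham libraries, and for Tek and Tie1 these groups overlap.

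The markers themselves moved with the operation, and their part in the members' changes was not tested. Over all genes tested 19.8% rose and 20.5% fell in CLP against Sham, and 13.9% rose and 13.4% fell in CLP+VNS against Sham+VNS. In CLP against Sham 9 of 15 pericyte and smooth muscle markers tested fell and none rose, with a median log2 fold change of -0.52 against -0.01 over all genes tested. Pdgfrb, the receptor that marks pericytes, averaged 66.2 ± 2.81 CPM in CLP and 103 ± 8.36 CPM in Sham (SD, n = 5 each), a log2 fold change of -0.64 (edgeR adjusted p = 1.47e-05). The summed level of the list was 711 to 990.1 CPM in CLP and 1032 to 1494 CPM in Sham, so the sums did not overlap, and no marker was at 0. In CLP+VNS against Sham+VNS 4 of the 15 fell and none rose, with sums of 663 to 1029 and 1158 to 1296 CPM.

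The shares over all genes tested were 19.8% risen and 20.5% fallen in CLP against Sham, and 13.9% and 13.4% in CLP+VNS against Sham+VNS. Of 21 endothelial markers 4 rose and 9 fell in CLP against Sham, with a median log2 fold change of -0.18, and 6 rose and 4 fell in CLP+VNS against Sham+VNS, with a median of 0.05. Their summed level was 6509 to 7492 CPM in CLP and 6485 to 7845 CPM in Sham, almost the same range. The sum is led by the abundant markers, and the mean log2 CPM of the 21 was 7.60 ± 0.09 in CLP and 7.77 ± 0.10 in Sham (SD, n = 5 each). Kdr, a VEGF receptor, fell by 1.25 and Emcn by 1.15 on the log2 scale in CLP against Sham (edgeR adjusted p = 4.53e-06 and 9.38e-06), whereas Pecam1 had a log2 fold change of -0.18 (edgeR adjusted p = 0.209). Tek itself did not pass while other endothelial genes moved in both directions. Of 8 platelet markers tested, 2 rose and none fell in CLP against Sham, Gp6 with a log2 fold change of 1.43 (edgeR adjusted p = 8.93e-06) and Itga2b with 0.77 (0.00121), and their summed level was 50.6 to 80.0 CPM in CLP and 28.9 to 41.7 CPM in Sham. Pf4, a defining platelet chemokine, averaged 1.14 CPM in CLP and 1.21 CPM in Sham, so the higher sum rested mostly on Gp6 and Itga2b. The part of platelets in the Angpt1 values was not tested. Neutrophil markers, 10 of 11 higher in CLP against Sham, summed to 2925 to 4774 CPM in CLP and 350 to 869 CPM in Sham.

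Around the receptors, 3 of 12 regulators rose and 4 fell in CLP against Sham (median log2 fold change -0.08). Over all genes tested 19.8% rose and 20.5% fell. Ptprb, the endothelial phosphatase VE-PTP that holds Tie2 in check, averaged 1359.8 ± 165 CPM in CLP and 985 ± 109 CPM in Sham (SD, n = 5 each), a log2 fold change of 0.46 ± 0.10 (SE, edgeR adjusted p = 0.00142). Mmp14, a membrane protease reported to shed Tie2, rose by 0.76 ± 0.11 (3.23e-05). Cdh5, the junctional cadherin partner of Ptprb, had a log2 fold change of -0.64 ± 0.09 (2.18e-05), and Svep1, an extracellular matrix ligand of Tie1, -1.34 ± 0.18 (1.64e-05). Svep1 averaged 39.8 ± 5.47 CPM in CLP and 101 ± 34.1 CPM in Sham, without overlap. Sham replicate 1 was the highest, at 157 CPM, against 74.3 to 109 CPM in the other Sham lungs. In CLP+VNS against Sham+VNS 3 of the 12 rose and 3 fell, among them Ptprb at 0.79 ± 0.10 (1.62e-05) and Svep1 at -0.89 ± 0.18 (0.00132). Over all genes tested 13.9% rose and 13.4% fell in that comparison.

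Of 23 genes of Tie2 signalling inside the cell, 9 rose and 1 fell in CLP against Sham (median log2 fold change 0.15). In CLP+VNS against Sham+VNS 8 rose and 3 fell (median 0.07). Over all genes tested 19.8% rose and 20.5% fell in the first comparison, and 13.9% rose and 13.4% fell in the second. The part of Tie2 in these changes was not tested. Nos3, the endothelial nitric oxide synthase, averaged 32.9 ± 0.901 CPM in CLP and 17.8 ± 4.68 CPM in Sham (SD, n = 5 each), a log2 fold change of 0.89 ± 0.13 (SE, edgeR adjusted p = 3.86e-05). Pik3r1, a regulatory subunit of PI3 kinase, was the gene that fell, with -0.49 ± 0.11 (0.00204), and the adaptor Shc1 rose by 0.46 ± 0.07 (2.10e-05). Foxo1 itself had a log2 fold change of 0.06 in CLP against Sham (edgeR adjusted p = 0.536) and rose by 0.31 ± 0.07 in CLP+VNS against Sham+VNS (0.00241). The 3 Akt genes did not pass in either comparison.

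**Figure D5:**
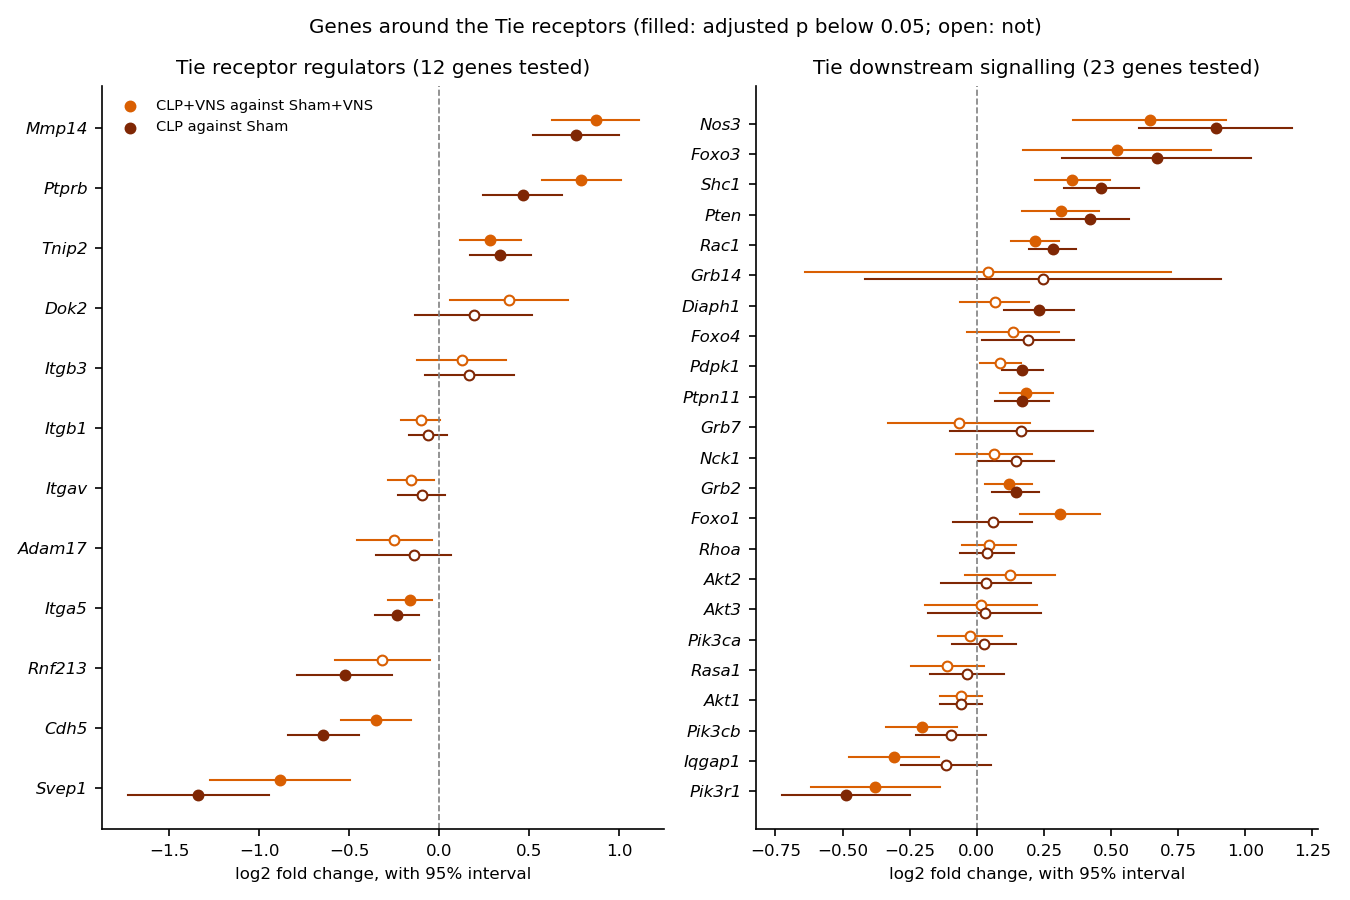
log2 fold change with its 95% interval (edgeR, horizontal axes) of 12 regulators of the Tie receptors (left) and 23 genes of signalling below Tie2 (right) in CLP+VNS against Sham+VNS and in CLP against Sham; filled points passed at an adjusted p below 0.05. Svep1 and Cdh5 lie lowest and Mmp14 and Ptprb highest among the regulators, and Nos3 lies highest and Pik3r1 lowest among the signalling genes.

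Angpt2 is both a FOXO1 target and a Weibel-Palade cargo, and the other genes of these 2 kinds were read beside it. Among all genes tested 19.8% rose and 20.5% fell in CLP against Sham, and 13.9% rose and 13.4% fell in CLP+VNS against Sham+VNS. Of 20 other FOXO targets, 15 rose and 1 fell in CLP against Sham (median log2 fold change 0.43), and 14 rose and 1 fell in CLP+VNS against Sham+VNS (median 0.42). Among the genes whose groups did not overlap the largest changes were those of Sod2, the mitochondrial superoxide dismutase, with a log2 fold change of 2.44 (edgeR adjusted p = 8.56e-10), Bcl6 with 1.12 (7.75e-08) and Trib1 with 0.63 (0.00011), and Sod2 is also a known target of NF-kappaB. Of 16 genes of the Weibel-Palade body, 6 rose and 3 fell in CLP against Sham (median 0.07). Selp, the leukocyte adhesion molecule P-selectin, averaged 34.5 ± 7.62 CPM in CLP and 8.92 ± 3.03 CPM in Sham (SD, n = 5 each), a log2 fold change of 1.95 (edgeR adjusted p = 9.21e-07). Plat, tissue plasminogen activator, rose by 1.70 (6.35e-07), while Vwf, the body's main protein, had a log2 fold change of -0.10 (0.624). The part of FOXO1 or of the Weibel-Palade body in the Angpt2 values was not tested.

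Among 19 transcription factors linked to angiopoietin or Tie transcription, 5 rose and 4 fell in CLP against Sham (median log2 fold change 0.03). These shares were near those over all genes tested, of which 19.8% rose and 20.5% fell. Erg, an endothelial ETS factor, had a log2 fold change of -0.46 (edgeR adjusted p = 0.00152), Gata3 -0.83 (0.0011) and Klf4 0.42 (0.00771). Of the 4 other family members tested, Angptl2 and Angptl7 fell in CLP against Sham. Angptl2 averaged 6.73 CPM in CLP and 16.4 CPM in Sham with overlapping libraries, a log2 fold change of -1.28 ± 0.33 (SE, edgeR adjusted p = 0.00486). Its Sham median was 12.9 CPM and its highest Sham library had 35.2 CPM, which raises the Sham mean. Angptl2 was not followed through the alternatives. Angptl7 had 1.84 ± 0.666 CPM in CLP and 7.78 ± 4.86 CPM in Sham (SD, n = 5 each), a log2 fold change of -2.07 (edgeR adjusted p = 0.00119). Its Sham median was 6.92 CPM and its highest Sham library had 16.0 CPM. None of the 4 passed in CLP+VNS against Sham+VNS. Among the 5 genes and these 4, Angptl4 was the one that rose.

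Angptl4 acts on lipoprotein lipase, and the enzyme and its anchor did not pass the test. In CLP against Sham Lpl had a log2 fold change of -0.12 (edgeR adjusted p = 0.623) and Gpihbp1, which holds the lipase on the capillary wall, of -0.26 (0.333). Of 16 genes of the triglyceride lipase system 6 rose and 2 fell (median log2 fold change -0.05). Over all genes tested 19.8% rose and 20.5% fell. Pcsk5, a proprotein convertase of the kind that cuts Angptl4 and the lipase, rose by 1.505 on the log2 scale (7.72e-05), Furin, another of them, by 0.30 (0.00108), and Vldlr, a lipoprotein receptor, had -0.92 (5.08e-07). In CLP+VNS against Sham+VNS 4 of the 16 rose and 1 fell, beside 13.9% and 13.4% of all genes tested.

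Genes of the pathways known to induce Angptl4 were read in the same way. All 12 glucocorticoid targets rose in CLP against Sham (median log2 fold change 1.11) and all 12 rose in CLP+VNS against Sham+VNS (median 1.37). Fkbp5, a standard reporter of the receptor, averaged 324 ± 57.3 CPM in CLP and 80.2 ± 30.6 CPM in Sham (SD, n = 5 each), a log2 fold change of 2.01 (edgeR adjusted p = 2.23e-05). Of 20 PPAR targets 8 rose and 1 fell in CLP against Sham (median 0.12), among them Cpt1a with 0.56 (0.000903), and 5 rose and none fell in CLP+VNS against Sham+VNS. Of 16 hypoxia targets 10 rose and 2 fell in CLP against Sham (median 0.34), with Hk2 at 1.04 (3.81e-05), Ddit4 at 0.97 (0.00368) and Vegfa, the vascular growth factor, at -0.89 (1.39e-06), and 7 rose and 2 fell in CLP+VNS against Sham+VNS. Among all genes tested 19.8% rose in CLP against Sham and 13.9% in CLP+VNS against Sham+VNS, while 20.5% and 13.4% fell. The lists share genes, Pdk4 being in both the glucocorticoid and the PPAR list. The part of these pathways in the Angptl4 values was not tested.

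Fat cells make Angptl4 as well, and adipocyte markers were uneven between libraries. Their summed level was 57.9 to 136 CPM in CLP (median 95.7) and 22.9 to 1861 CPM in Sham (median 46.2), and 55.7 to 107 CPM in CLP+VNS (median 70.8) and 29.0 to 478 CPM in Sham+VNS (median 49.2), so the medians were higher after the operation while the highest single lungs were sham-operated. Fabp4, a fatty acid binding protein that is not limited to fat cells, had a median of 66.1 CPM in CLP and 15.3 CPM in Sham. Adipoq, which defines the cell type, was at 0 in 3 of 5 CLP lungs and reached 285 CPM in Sham replicate 1, the lung with the high Angptl4. In Sham+VNS replicate 2 Adipoq reached 96.3 CPM, and that lung had the lowest Angptl4 of its group, 6.33 CPM. Of 6 adipocyte markers tested none rose and 3 fell in CLP against Sham, where Sham replicate 1 raises the Sham mean: the adjusted p of Adipoq reached 0.189 over the alternatives run. The part of fat cells in the Angptl4 values was not tested.

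The deposited transcript table splits 4 of the 5 members into more than 1 annotated transcript, and their shares were close in the 4 groups. Angpt1 had 2 transcripts, of which NM_053546 held 33.0 ± 4.26% of the gene's TPM in CLP and 32.2 ± 4.61% in Sham (SD, n = 5 each), and 28.4 ± 3.47% in CLP+VNS and 30.4 ± 4.60% in Sham+VNS. Both Angpt1 transcripts were lower after the operation: XM_006241609 averaged 12.1 ± 2.99 TPM in CLP and 27.0 ± 4.66 TPM in Sham, and NM_053546 5.91 ± 1.37 TPM in CLP and 12.7 ± 1.55 TPM in Sham. For Angptl4, NM_199115 held 93.1 ± 3.09% in CLP and 97.4 ± 3.24% in Sham, the remainder falling on 2 predicted transcripts. The main transcript of Tek held 76.4 ± 3.77% in CLP and 74.2 ± 2.91% in Sham, and that of Tie1 63.1 ± 4.55% in CLP and 65.0 ± 5.13% in Sham. Angpt2 was given as 1 transcript. These shares are the authors' estimates and were not tested.

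For each member the 3 genes whose centred log2 CPM over the 20 libraries lay nearest to it were picked out of 14102 genes, by the root mean square difference. Angpt1 lay nearest to Mylk, the smooth muscle myosin light chain kinase, at 0.14, then Specc1l at 0.15 and Aopep at 0.17, where Angpt1 itself had an SD of 0.52. Angpt2 (SD 0.75) lay nearest to Wnt5a, a Wnt ligand of mesenchymal cells, at 0.24, then Nexn at 0.26 and Islr at 0.28. Angptl4 (SD 1.23) lay nearest to Pdk4, the kinase that slows pyruvate oxidation, at 0.36, then Selp at 0.52 and Slc39a8 at 0.53. Pdk4 rose in CLP against Sham with a log2 fold change of 2.32 (edgeR adjusted p = 4.43e-07), and Mylk had -1.06 (3.86e-06) and Wnt5a -1.40 (6.16e-07). These genes were picked for following the members in the same 20 libraries, so their changes describe the pick and are no separate evidence. Tek (SD 0.27) lay nearest to Hecw2 at 0.14, Foxf1 at 0.14 and Cdc14a at 0.15, and Tie1 (SD 0.22) to Tspan7, Slc36a4 and Cyth3, each at 0.11.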

How the data were processed

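RNA of lung tissue was sequenced as poly(A)-selected, strand-specific paired-end libraries, per the labels' protocols. The authors deposited estimated counts per gene and per transcript, with TPM and FPKM beside them, and a rescaled count signal whose factors no label states. The genome build was mRatBN7.2 per the submitters' processing notes, with aligner, counter and annotation not given in the sources used here. The FPKM and the rescaled signal, as deposited, were not used.

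Of the deposited count values 91.5% were whole numbers (tolerance 1e-06), and all were rounded. Genes were kept by edgeR's filterByExpr (minimum count 10), scaled by TMM and fitted with edgeR 4.0.16 (robust quasi-likelihood, R 4.3.3) as 4 group means over 20 libraries, with 16 residual degrees of freedom; calls are at a Benjamini-Hochberg adjusted p below 0.05 over 14794 genes. SEs are the log2 fold change over the square root of its F statistic, and CPM are TMM-scaled. Per-library ratios were tested by exact permutation, two-sided, over the 252 splits of 5 against 5 (for the interaction, stimulation labels were permuted within each operation), adjusted over 30 tests. The fit and the permutation test were tested on simulated data.

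Totals of 13729654 to 14453188 counts per library give Angpt2 as few as 28 reads. Reads are not independent molecules, and no counting interval is given. Alternatives were DESeq2 1.42.0, limma 3.58.1 on log2(TPM + 0.1) and log2(TPM + 1), other scalings and filters, a fit of only 2 groups, the replicate block and leaving out each library. The members and the gene lists, the tests and the alternatives were chosen with earlier results of these data known. Named genes are the members and, from each list, up to 3 tested genes with the largest change among those called in CLP against Sham with a mean of at least 1 CPM and no overlap between groups, plus Pecam1, Cdh5, Ptprb, Svep1, Foxo1, Lpl, Gpihbp1, Pdk4, Vwf, Selp, Pdgfrb, Adipoq, Vegfa and, for each member, its 3 nearest genes; Angptl2 and the Akt genes were named after their values were seen. Of 283 listed genes 281 were in the table and 265 were tested. Car4, Car9 and Robo4 were matched as Ca4, Ca9 and LOC100911068 through the RefSeq gene table.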

Additional observations from a re-analysis of the deposited data

Results flagged for a closer look

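In groups of 5, a library was marked where its gap to the nearest other exceeded 0.71 of the group's range (Dixon's 95% value), in 44 groups of member levels and ratios, where chance marks about 1 in 20. Angptl4 stood at 37.0 CPM in Sham replicate 1, against 4.63 to 12.8 CPM in the other Sham lungs. The log2 ratio of Tie1 to Tek stood at -1.45 in CLP+VNS replicate 8, against -1.88 to -1.76 in the other CLP+VNS lungs.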

How the results depend on the processing

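The calls of Angpt1, Angpt2 and Angptl4 in both comparisons of the operation, and that of Tie1 in CLP against Sham, were made under all 29 alternatives run for each, with adjusted p-values of at most 0.00054, 0.00773, 0.00076, 0.0095, 0.0166, 0.036 and 0.0213 (in the order Angpt1, Angpt2 and Angptl4, CLP against Sham before CLP+VNS against Sham+VNS, then Tie1). No alternative called Tek, or any member in the comparisons of stimulation or in the interaction. Replicate numbers are shared between groups, but same-numbered libraries did not deviate together (correlations -0.163 to 0.178, 3 of 22 pairs above 0.1), so they were not treated as pairs. With the replicate block 4732 genes were called in CLP against Sham, 2109 in CLP+VNS against Sham+VNS and 0 in CLP+VNS against CLP; the log2 fold changes in CLP+VNS against CLP were -0.045 for Angpt2 and 0.064 for Angptl4, that of Angptl4 in Sham+VNS against Sham was 0.0021, and that of Vwf in CLP+VNS against Sham+VNS was -0.010. Over same-numbered rats only (replicate block), the interaction was -0.087 for the Tie1 to Tek ratio and 0.077 for Tek relative to endothelial markers, and Tie1 relative to those markers was 0.015 in CLP+VNS against CLP.

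In CLP+VNS against CLP 0 genes were called with total count scaling, with limma on log2(TPM + 0.1), with limma on log2(TPM + 1) and with only the 2 groups in the fit, and 144 by DESeq2. In Sham+VNS against Sham 6 were called by DESeq2 and 1 with only the 2 groups, and in the interaction 6 by DESeq2. With limma on log2(TPM + 0.1) and log2(TPM + 1), Angptl4 was 0.13 and 0.11 in Sham+VNS against Sham and -0.21 and -0.19 in the interaction, and Foxo1 was -0.019 and -0.018 in CLP against Sham. With the median of the marker list in place of the mean, Angpt2 relative to endothelial markers was -1.52 in CLP against Sham and -1.47 in CLP+VNS against Sham+VNS, Angpt1 relative to pericyte and smooth muscle markers -0.85 and -0.74, and Tie1 in CLP+VNS against Sham+VNS -0.46, all past the threshold; Tek was -0.072 in CLP+VNS against Sham+VNS and Tie1 0.048 in Sham+VNS against Sham. With 2 marker genes alone, Tie1 was 0.059 in CLP against Sham, 0.070 in CLP+VNS against Sham+VNS and 0.011 in the interaction, and Angpt1 was -0.15 in CLP+VNS against CLP.

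Leaving out each library in turn gave 0 to 277 calls in CLP+VNS against CLP (277 without CLP+VNS replicate 1), 0 to 2 in Sham+VNS against Sham and 0 to 3 in the interaction. The log2 fold changes ran from -0.079 to 0.22 for Angpt2 and -0.19 to 0.0068 for Angptl4 in CLP+VNS against CLP, from -0.35 to 0.61 for Angptl4 and -0.020 to 0.10 for Tie1 in Sham+VNS against Sham, and from -0.71 to 0.24 for Angptl4 in the interaction. In CLP+VNS against Sham+VNS they ran from -0.039 to 0.12 for Gpihbp1, -0.025 to 0.23 for Itga2b, -0.0099 to 0.15 for Lpl, -0.073 to 0.068 for Pecam1 and -0.088 to 0.023 for Tspan7, and in CLP against Sham from -0.26 to 0.029 for Lpl. The Angpt2 to Angpt1 ratio ran from -0.75 to -0.39 in CLP against Sham, -0.12 to 0.24 in CLP+VNS against CLP, -0.20 to 0.00037 in Sham+VNS against Sham and -0.021 to 0.35 in the interaction. The Tie1 to Tek ratio ran from -0.47 to -0.29 in CLP+VNS against Sham+VNS, passing without CLP+VNS replicate 8, and from -0.014 to 0.18 in the interaction. Angpt2 relative to endothelial markers ran from -1.52 to -1.19 in CLP against Sham, -1.32 to -1.14 in CLP+VNS against Sham+VNS and -0.028 to 0.30 in the interaction. Tek relative to these markers ran from 0.24 to 0.34 in CLP against Sham and -0.0028 to 0.12 in CLP+VNS against CLP, and Tie1 from -0.076 to 0.048 in Sham+VNS against Sham and -0.087 to 0.037 in the interaction. Angpt1 relative to pericyte and smooth muscle markers ran from -0.69 to -0.54 in CLP against Sham, -0.54 to -0.46 in CLP+VNS against Sham+VNS and -0.060 to 0.028 in Sham+VNS against Sham. Without CLP replicate 5 Angpt2, Tek and Angpt1 relative to their markers passed in CLP against Sham, and without CLP+VNS replicate 8 Angpt2 and Angpt1 did in CLP+VNS against Sham+VNS. For Angpt2 and Angpt1, here and with the median, the unadjusted p was already the smallest possible, so only the adjustment could change the call. For Tek and for the Tie1 to Tek ratio, the library left out was the only one of its group that overlapped the other group. Those passes are no separate evidence. The causes of the shifts in value were not tested. Whole-lung RNA limits what these values say of any cell type, the adjustment over 30 ratios leaves little room at 5 libraries a group, and the low count of Angpt2 widens its error.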

Other observations

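The other cell types of the lung were read by lists of markers. Beside them, 19.8% of all genes tested rose and 20.5% fell in CLP against Sham, and 13.9% and 13.4% in CLP+VNS against Sham+VNS. Of 15 fibroblast markers 1 rose and 8 fell in CLP against Sham (median log2 fold change -0.49), and 2 rose and 4 fell in CLP+VNS against Sham+VNS (median -0.12). Of 8 markers of capillary aerocytes, the large alveolar capillary cells, 2 rose and 4 fell in CLP against Sham (median -0.28), and 1 rose and 3 fell in CLP+VNS against Sham+VNS (median -0.25). Of 8 general capillary markers 1 rose and 3 fell in CLP against Sham (median -0.21), and 2 rose and 2 fell in CLP+VNS against Sham+VNS (median 0.02). Of 10 lung epithelium markers 1 rose and 2 fell in both comparisons (medians 0.11 and -0.03).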
